A study of Arabidopsis thaliana with 16 samples.

Results

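The transcripts of the chloroplast genome were followed in 3'RNA-seq data from imbibed Arabidopsis thaliana seeds. The members were all loci whose identifier starts with ATCG, and the files held 133 of them among 37336 loci. Freshly harvested seeds were imbibed for 72 h at 4°C on 1/2 MS agar plates with 100 mM NaCl or without it (mock). The 16 libraries comprised 4 each of dog1-3 NaCl, dog1-3 mock, WT NaCl and WT mock seeds. WT is Col-0, and dog1-3 is a line with a T-DNA insertion in DOG1, the gene for a regulator of seed dormancy, so that the mutant groups rest on a single allele. The counts for DOG1 (AT5G45830) fit these labels, at 17.2 to 23.5 CPM in dog1-3 NaCl and 14.2 to 19.0 CPM in dog1-3 mock, against 124 to 170 CPM in WT NaCl and 63.1 to 102 CPM in WT mock (CPM, counts scaled to a common library size). The DOG1 signal was thus lower but not absent in the mutant, with a log2 fold change (log2FC) of -2.33 in mock and -2.94 in NaCl. The labels number 4 replicates in each group without saying that these were separate seed batches, so that p-values measure the spread between these libraries, which may be technical. Whole seeds were ground, and fewer plastids and less plastid RNA per cell cannot be told apart in such material.

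The chloroplast genome encodes part of the photosystems, the ATP synthase, the plastid ribosome and a bacterial-type RNA polymerase, while nuclear genes supply a phage-type plastid polymerase, the sigma factors that guide the bacterial-type enzyme to promoters, and most other plastid proteins. Seeds carry undeveloped plastids, and chloroplast development belongs to seedling establishment. Plastid mRNAs usually end without a stable poly(A) tail, and in plastids adenylation tags RNA fragments for decay. The libraries were primed with oligo(dT), which can anneal to such short tails or to A-rich stretches inside an RNA. The counts are therefore a partial view of the chloroplast transcripts, and levels of different loci are not compared here as amounts of RNA. The genes of the plastid genome are also copied from both strands and in long units, and whether counting used strand was not given in the sources used here.

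The files list loci without names, and names from the RefSeq TAIR10.1 annotation are used here for 5 of the ATCG identifiers. These are ATCG00430 (photosystem II reaction center protein G), ATCG00530 (a CemA-like protein of the chloroplast envelope), ATCG00660 (ribosomal protein L20), ATCG00670 (plastid-encoded CLP P, a protease subunit) and ATCG01310 (ribosomal protein L2). All other loci are given by identifier. For 4 of the 5 a RefSeq gene could be placed on the chloroplast genome (Pltd, 154478 bases). ATCG00430 was not among these, so its name rests on an annotation note alone. Its function was not checked, and the name is not taken here as its function. To show what an oligo(dT) primer could meet inside these RNAs, the stretch of 20 bases richest in A on the sense strand of each gene is printed here 5′ to 3′ as in RefSeq, with runs of 3 or more A in capitals.
ATCG00530, cemA: gaatgatattcaagAAAAAA
ATCG00660, rpl20: cgaatgacatAAAAAAAtaa
ATCG00670, clpP: tAAAAAAtggaatAAAAAAA
ATCG01310, rpl2: aagaactagAAAAAggAAAA

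The stretch in clpP held 15 A among its 20 bases, and 0.386% of all windows of this length on both strands of the chloroplast genome held as many. It has no base in a coding exon (Pltd:71247-71266, minus strand, gene at Pltd:69910-71882). The longest run of A in clpP had 13 bases. ATCG00670 collected 2049 counts over the 16 libraries, or 27.5 CPM per kb of gene, where CPM is the count scaled to a common library size with TMM factors and the mean is over all libraries.
The stretch in rpl20 held 13 A (1.89% of windows) and forms the end of the coding sequence (Pltd:68512-68531, minus strand, gene at Pltd:68512-68865). ATCG00660 collected 997 counts, or 77.0 CPM per kb. The stretch in cemA held 12 A (3.69% of windows) in the coding exon (Pltd:60884-60903, plus strand, gene at Pltd:60741-61430). ATCG00530 collected 209 counts, or 8.64 CPM per kb.
The stretch in rpl2 held 14 A (0.927% of windows), and yet ATCG01310 had no count in any library. With so few named loci these values are a description, and whether the A content sets the counts was not tested.

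RefSeq places rpl2 on the chloroplast genome in duplicate, at Pltd:84337-85843 on the minus strand and at Pltd:152806-154312 on the plus strand, and the copies of 1507 bases were identical. They lie in the inverted repeat, a feature of most plant plastid genomes in which a long segment is present a second time in the opposite direction. An exact match of the genome with its own reverse complement, with a minimum of 200 bases, placed the copies at Pltd:84171-110434 and Pltd:128215-154478, together 34.0% of the genome. A read from an identical copy has more than one place to map to. Of the 133 loci, 34 (25.6%) had no count in any library, and they formed 4 runs of consecutive identifiers. The runs were ATCG00830 to ATCG00900 (8 loci), ATCG00910 to ATCG00990 (9 loci), ATCG01140 to ATCG01170 (4 loci) and ATCG01190 to ATCG01310 (13 loci). Only ATCG00905 stood between ATCG00900 and ATCG00910, and only ATCG01180 between ATCG01170 and ATCG01190, each with a single count over all libraries. In RefSeq 31 of 129 chloroplast genes (24.0%) lay wholly inside the repeat. Identifiers other than ATCG01310 could not be placed there by name, so that the loci listed at 0 were not matched to the repeat one by one. How reads with several matches were counted was not given in the sources used here, and its part in the 34 zeros was not tested. A count of 0 in the smallest library allows a level of up to 2.12 CPM, taking 3 counts as the limit, and this covers counting error only.

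**Figure D1:**
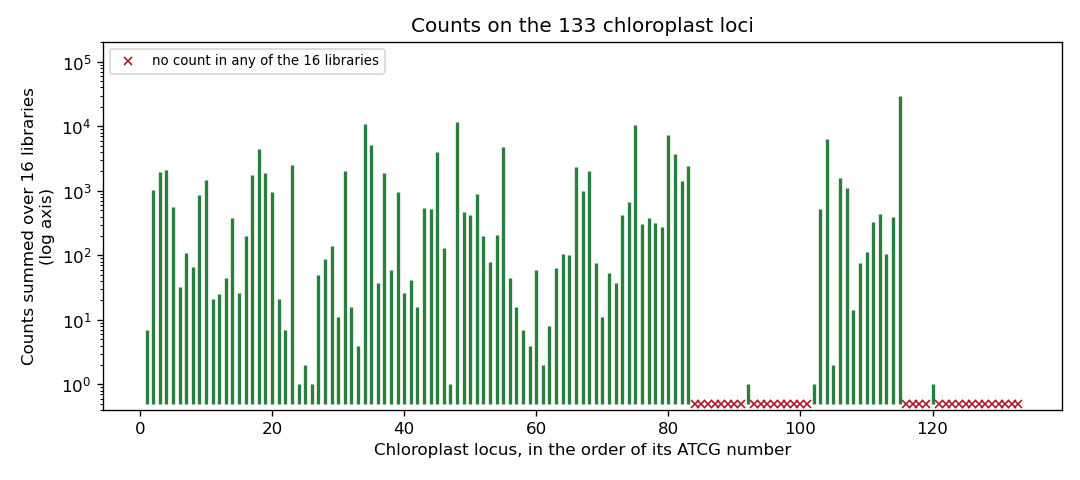
Counts summed over the 16 libraries (log axis) for each of the 133 chloroplast loci, placed in the order of their ATCG numbers, with crosses for the 34 loci without a count. The zeros stand in blocks, and the tallest line is ATCG01130 with 29612 counts.

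Of the 133 loci, 99 had a count in at least 1 library and 63 had counts in all 16. The rule of 10 or more counts in at least 4 libraries was met by 55 loci, which held 99.0% of the chloroplast counts. The other 44 loci with counts had between 1 and 105 counts summed over the libraries, with a median of 21, and 6 of them had a single count. The edgeR filter on low counts passed 52 of the 55 loci, and ATCG00450, ATCG00630 and ATCG01080 (106 to 130 counts each) were not tested. Between 76 and 87 loci were detected in a library. At the depth of the smallest library 78.5 ± 0.904 loci would be detected in dog1-3 NaCl, 78.8 ± 3.76 in dog1-3 mock, 78.3 ± 1.97 in WT NaCl and 74.8 ± 3.05 in WT mock (SD, n = 4 each). The ranges of the groups overlap, so the number of chloroplast RNAs seen did not separate the groups once depth was made equal.

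A few loci carried most of the signal. ATCG01130 alone took 21.1% of all chloroplast counts, the 8 highest loci took 61.4% and the 20 highest took 83.8%. After ATCG01130 came ATCG00470 (11558 counts), ATCG00330 (10750), ATCG00740 (10491), ATCG00790 (7249), ATCG01020 (6413), ATCG00340 (5214) and ATCG00540 (4797). ATCG01130 measured 752, 761, 820 and 892 CPM in dog1-3 NaCl, 820, 863, 946 and 706 CPM in dog1-3 mock, 602, 814, 818 and 872 CPM in WT NaCl, and 787, 732, 683 and 888 CPM in WT mock. The 4 groups overlapped throughout, and its log2FC lay between -0.05 and 0.11 in the 4 comparisons, with a standard error of at most 0.099. The standard error of the locus with the most counts was thus small beside the 1.5-fold threshold used for calls.

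Chloroplast loci together made up 0.379% of all counts, and between 4753 and 18435 counts per library at total depths of 1416354 to 3635844. The share was 0.318, 0.315, 0.280 and 0.336% in the dog1-3 NaCl libraries, 0.374, 0.491, 0.532 and 0.329% in dog1-3 mock, 0.277, 0.368, 0.407 and 0.394% in WT NaCl, and 0.424, 0.310, 0.347 and 0.507% in WT mock. The 95% Wilson interval of a library's share is at most 0.0108 percentage points to either side, so that the spread within each group was larger than counting error. Dog1-3 NaCl was the tightest group and the lowest on average.
Group means were 0.312 ± 0.0232% in dog1-3 NaCl, 0.432 ± 0.0960% in dog1-3 mock, 0.361 ± 0.0588% in WT NaCl and 0.397 ± 0.0873% in WT mock (SD, n = 4 each). The ratio of means was -0.47 on the log2 scale for dog1-3 NaCl against dog1-3 mock and -0.14 for WT NaCl against WT mock. It was 0.12 for dog1-3 mock against WT mock and -0.21 for dog1-3 NaCl against WT NaCl. Every one of these 4 pairs of groups overlapped, and the share is given without a test because the members were chosen with earlier results of these data known. The difference within dog1-3 was the most separated, with the NaCl library higher in only 1 of 16 pairs of libraries. The cDNA of all mock libraries was combined into one pool and that of all NaCl libraries into another. In both salt comparisons pool and treatment therefore cannot be told apart, while each comparison of genotypes lies within one pool.

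The mitochondrial loci, set beside the chloroplast as the other organelle genome, moved in the same order of groups. Their share was 0.277 ± 0.0318% in dog1-3 NaCl, 0.564 ± 0.230% in dog1-3 mock, 0.373 ± 0.0744% in WT NaCl and 0.465 ± 0.184% in WT mock (SD, n = 4 each), and 82.6% to 91.2% of it came from 1 locus. The dog1-3 mock libraries 2 and 3 had the highest shares of their group for both organelles, and WT mock library 4 had the highest of its group for both. Many loci of a library deviated together. WT mock library 2 was the lowest of its group in 34 of the 52 tested chloroplast loci and library 4 the highest in 38. In dog1-3 mock, library 3 was the highest in 31 loci and library 4 the lowest in 29. In WT NaCl, library 1 was the lowest in 29. How counts of calls moved with single libraries left out is given beside them, and what set these libraries apart was not tested.

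**Figure D2:**
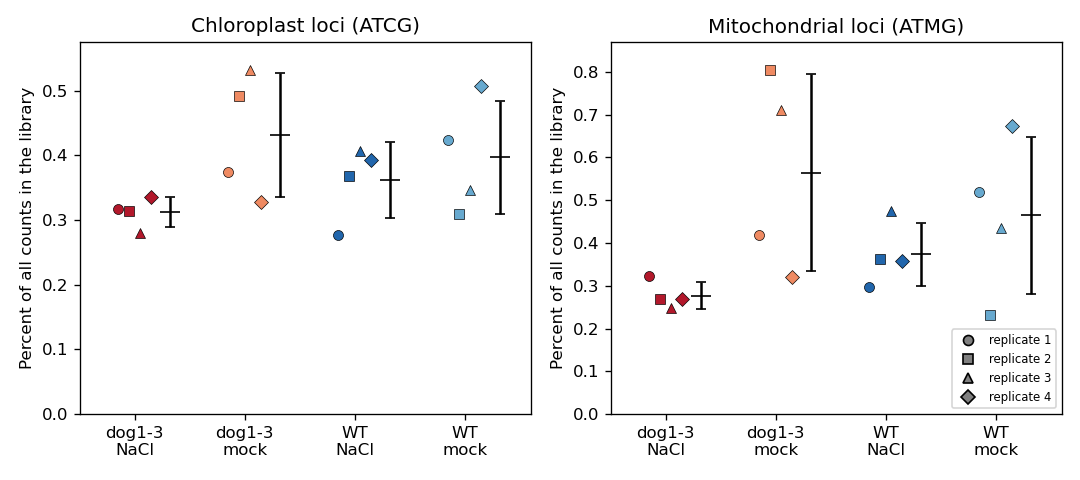
Percent of all counts on chloroplast loci (left) and mitochondrial loci (right) in each library by group, with marker shapes for the replicate numbers and bars for the mean ± SD (n = 4). Dog1-3 NaCl has the lowest mean in both panels, at 0.280 to 0.336% for the chloroplast, and overlaps the other groups.

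Between WT NaCl and WT mock, 10 of the 52 tested chloroplast loci were called, 6 higher and 4 lower in NaCl, at an adjusted p under 0.05 and more than 1.5-fold in edgeR's quasi-likelihood test. The background over all 12697 tested loci was 9.46% called higher and 7.07% called lower in WT NaCl, and the chloroplast loci lay near it, with 11.5% higher and 7.69% lower. The median log2FC of the 52 loci was -0.06, against -0.002 over all loci. ATCG01090 (log2FC 1.61), ATCG00340 (1.19), ATCG01050 (1.17), ATCG00490 (0.82), ATCG01010 (0.66) and ATCG00330 (0.61) were higher in WT NaCl. The decreases included ATCG00720 (-1.23), ATCG00730 (-1.04) and ATCG00790 (-0.82). With library totals in place of TMM scaling, under which the median of all loci was -0.12, the calls split into 4 higher and 7 lower.

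ATCG00340 had the smallest p of the increases in WT. It measured 213, 218, 201 and 151 CPM in dog1-3 NaCl, 79.9, 146, 143 and 86.1 CPM in dog1-3 mock, 170, 186, 272 and 198 CPM in WT NaCl, and 95.4, 68.9, 101 and 94.6 CPM in WT mock. The NaCl libraries lay above the mock libraries in both genotypes with no overlap. The log2FC was 1.19 in WT (standard error 0.14, adjusted p = 1.76e-08) and 0.78 in dog1-3 (standard error 0.15, adjusted p = 9.51e-05). The difference between these responses was -0.41 (standard error 0.21, adjusted p = 0.771).
Within the chloroplast counts ATCG00340 took 5.50 ± 0.977% in dog1-3 NaCl and 2.56 ± 0.313% in dog1-3 mock, and 5.83 ± 0.755% in WT NaCl and 2.56 ± 0.488% in WT mock (SD, n = 4 each). Its weight among chloroplast RNAs was thus higher under salt in either genotype, whatever the size of the total. This locus was called in both salt comparisons under each of the 11 other settings and with any library left out.

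The neighbouring identifier ATCG00330 measured 375, 336, 330 and 242 CPM in dog1-3 NaCl, 221, 395, 347 and 218 CPM in dog1-3 mock, 286, 319, 452 and 340 CPM in WT NaCl, and 263, 145, 260 and 244 CPM in WT mock. All WT NaCl libraries lay above all WT mock libraries, whereas the dog1-3 groups overlapped. Its log2FC was 0.61 in WT (standard error 0.15, adjusted p = 0.00175) and 0.12 in dog1-3 (standard error 0.16, adjusted p = 0.612). The interaction was -0.49 (standard error 0.22, adjusted p = 0.734), so that a difference between genotypes was not shown. The call in WT was lost without WT mock library 2 (0.45) or WT NaCl library 3 (0.47), with DESeq2 (0.61, adjusted p = 0.0603) and with library totals in place of TMM scaling, with all loci (0.49) or without the 20 highest (0.57).
ATCG01090 measured 9.85, 17.4, 11.6 and 6.27 CPM in dog1-3 NaCl, 5.86, 10.07, 6.87 and 8.92 CPM in dog1-3 mock, 11.7, 22.1, 16.5 and 8.0 CPM in WT NaCl, and 8.20, 1.90, 5.17 and 4.60 CPM in WT mock. Here the lowest WT NaCl library lay just below the highest WT mock library, and the other 3 lay above all WT mock libraries. The log2FC in WT was 1.61 (standard error 0.29, adjusted p = 3.42e-05), on 16 to 47 counts per WT NaCl library and 7 to 22 per WT mock library.

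ATCG01050 measured 43.2, 35.5, 19.9 and 25.9 CPM in dog1-3 NaCl, 34.1, 42.9, 41.8 and 19.4 CPM in dog1-3 mock, 31.6, 35.8, 79.1 and 23.5 CPM in WT NaCl, and 13.0, 4.88, 24.1 and 29.3 CPM in WT mock. The WT groups overlapped, and WT NaCl library 3 stood above the rest. The log2FC was 1.17 in WT (standard error 0.30, adjusted p = 0.00179), and 0.72 and not called without that library. DESeq2 gave 1.24 and no call (adjusted p = 0.0623).
ATCG00490 measured 9.85, 18.1, 24.4 and 12.5 CPM in dog1-3 NaCl, 12.2, 8.58, 17.2 and 6.30 CPM in dog1-3 mock, 14.1, 13.7, 14.8 and 12 CPM in WT NaCl, and 9.31, 3.80, 6.89 and 10.9 CPM in WT mock. Each WT NaCl library exceeded each WT mock library, by a small margin at the closest pair. The log2FC was 0.82 in WT (standard error 0.27, adjusted p = 0.0146) and 0.58 in dog1-3 (standard error 0.28, adjusted p = 0.117). Without WT mock library 2 the value in WT was 0.60 and was not called. The increase of ATCG01010 in WT was lost with any of 6 single libraries left out (log2FC 0.50 to 0.65), namely WT mock 1, 2 and 3 and WT NaCl 1, 2 and 3. It was also lost with DESeq2 (0.67, adjusted p = 0.0851), library totals (0.54, adjusted p = 0.0806) and scaling to the chloroplast counts (0.73, adjusted p = 0.0542).

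**Figure D3:**
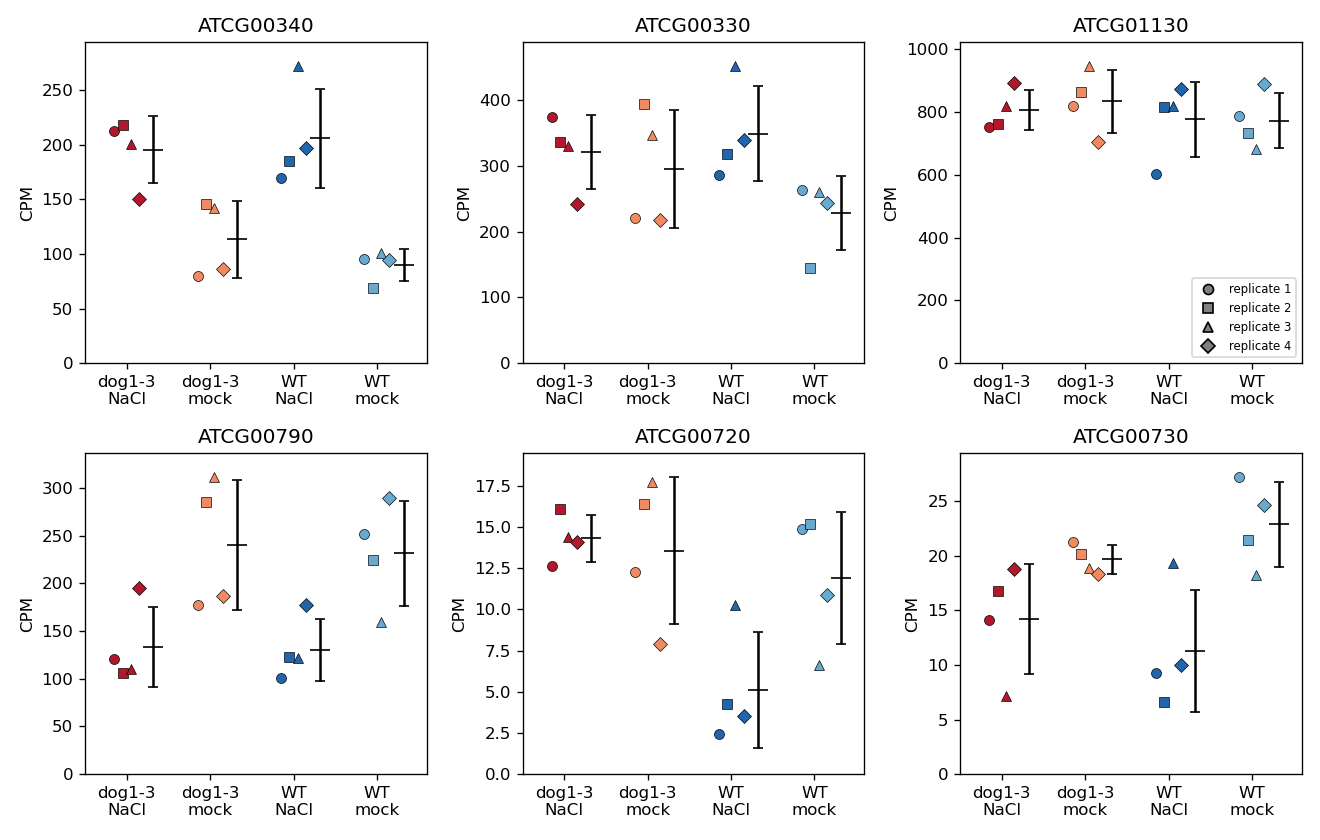
CPM after TMM scaling in each library by group for 6 chloroplast loci, with marker shapes for the replicate numbers and bars for the mean ± SD (n = 4). ATCG00340 is higher and ATCG00790 on average lower in NaCl than in mock in both genotypes, the groups overlap for ATCG01130, and ATCG00720 is low only in WT NaCl, where 3 of the 4 libraries lie between 2.43 and 4.24 CPM.

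ATCG00790 measured 121, 106, 110 and 195 CPM in dog1-3 NaCl, 177, 286, 311 and 186 CPM in dog1-3 mock, 101, 122, 122 and 177 CPM in WT NaCl, and 251, 225, 160 and 290 CPM in WT mock. In each genotype the highest NaCl library, number 4, reached into the range of the mock libraries, and the other 3 stayed below it. The log2FC was -0.82 in WT (standard error 0.17, adjusted p = 0.000141) and -0.88 in dog1-3 (standard error 0.17, adjusted p = 0.000168). As a part of the chloroplast counts it took 3.71 ± 1.05% in dog1-3 NaCl and 5.43 ± 0.475% in dog1-3 mock, and 3.70 ± 0.710% in WT NaCl and 6.49 ± 1.14% in WT mock (SD, n = 4 each). ATCG00340 and ATCG00790 were among the 3 loci called in both salt comparisons, 3 of 10 in WT and 3 of 19 in dog1-3, and each had the same direction in both. The matching overlap over all tested loci was not computed, so whether this count is unusual cannot be told. The call of ATCG00790 in dog1-3 was lost without dog1-3 mock libraries 2 and 3 (-0.47, adjusted p = 0.0722) and with scaling to the chloroplast counts (-0.56, adjusted p = 0.0506). Libraries 2 and 3 were left out after seeing their high chloroplast shares.

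ATCG00720 differed most between the genotypes under salt. It measured 12.7, 16.1, 14.4 and 14.1 CPM in dog1-3 NaCl, 12.2, 16.4, 17.7 and 7.87 CPM in dog1-3 mock, 2.43, 4.24, 10.2 and 3.50 CPM in WT NaCl, and 14.9, 15.2, 6.65 and 10.9 CPM in WT mock. All dog1-3 NaCl libraries lay above all WT NaCl libraries, and WT NaCl library 3 was the one that reached the WT mock range. The log2FC of dog1-3 NaCl against WT NaCl was 1.52 (standard error 0.34, adjusted p = 0.00052), that of salt in WT was -1.23 (standard error 0.31, adjusted p = 0.00179) and that of salt in dog1-3 was 0.05 (standard error 0.27, adjusted p = 0.920). It had the smallest interaction p of the chloroplast loci, with a difference of 1.28 (standard error 0.42), yet after adjustment over all loci this was 0.515. ATCG00730, the next identifier, measured 14.1, 16.8, 7.19 and 18.8 CPM in dog1-3 NaCl, 21.3, 20.1, 18.9 and 18.4 CPM in dog1-3 mock, 9.23, 6.59, 19.4 and 10.0 CPM in WT NaCl, and 27.2, 21.4, 18.2 and 24.7 CPM in WT mock. WT NaCl library 3 again lay with the mock libraries. Its log2FC was -1.04 in WT (standard error 0.21, adjusted p = 0.00017) and -0.52 in dog1-3 (standard error 0.23, adjusted p = 0.0959).

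ATCG00720 was the only chloroplast locus called between the genotypes under salt, where 1 of 52 was higher and none lower in dog1-3 NaCl. The background was 8.16% called higher and 7.54% called lower. DESeq2 also called 1 locus. In edgeR 2 of the 52 had an unadjusted p under 0.05, against 4876 of all 12697 tested loci. The median log2FC of the 52 loci was 0.04, against -0.02 over all loci.

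Between dog1-3 NaCl and dog1-3 mock, 19 of the 52 loci were called, 1 higher and 18 lower in NaCl, and 3 were called without dog1-3 mock libraries 2 and 3. The background was 7.53% called higher and 7.16% called lower, and of the chloroplast loci 1.92% were called higher and 34.6% lower. The median log2FC of the 52 loci was -0.49, against -0.02 over all loci. Of the 52, 39 were negative, against 6580 of all 12697 tested loci. The decreases were between -1.52 and -0.60 on the log2 scale. They included ATCG00020, ATCG00180, ATCG00080, ATCG00190, ATCG00810, ATCG00760, ATCG01100, ATCG00090, ATCG00040, ATCG00770, ATCG00790, ATCG00800, ATCG00820, ATCG00360, ATCG00170, ATCG00300 and ATCG01040. The increase was ATCG00340. Measured relative to the summed chloroplast counts of a library, which removes the change of the total, 3 loci were called higher and 9 lower.

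The count depended on dog1-3 mock libraries 2 and 3, those with the highest chloroplast shares of the group. Without both, 3 loci were called, 2 higher and 1 lower, and the median log2FC was -0.15. ATCG00340 was among the 2 calls that remained under every setting and with every library left out, and 13 of the 19 remained when any single library was left out. The exclusion was chosen after seeing the data, and it leaves 2 libraries in dog1-3 mock, which also lowers the power to make calls.

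ATCG00020 was the largest decrease. It measured 11.3, 16.8, 23.2 and 26.7 CPM in dog1-3 NaCl, 27.2, 101, 49.2 and 28.3 CPM in dog1-3 mock, 14.1, 11.8, 33.6 and 23.5 CPM in WT NaCl, and 29.1, 7.32, 15.0 and 31.0 CPM in WT mock. Dog1-3 mock library 2 stood far above the other 15, and dog1-3 mock libraries 1 and 4 lay just above the highest dog1-3 NaCl library. The log2FC of salt in dog1-3 was -1.52 (standard error 0.35, adjusted p = 0.00103). In WT it was 0.00 on the log2 scale (standard error 0.35, adjusted p = 0.9998). Without dog1-3 mock libraries 2 and 3, left out after seeing the data, the value in dog1-3 was -0.56 and was not called.

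ATCG00180 measured 38.0, 32.2, 29.9 and 20.4 CPM in dog1-3 NaCl, 62.8, 89.2, 103 and 38.8 CPM in dog1-3 mock, 28.7, 55.1, 32.5 and 35.5 CPM in WT NaCl, and 54.0, 23.9, 48.7 and 76.7 CPM in WT mock. ATCG00080 measured 22.5, 18.1, 7.19 and 19.6 CPM in dog1-3 NaCl, 22.9, 42.5, 51.0 and 40.4 CPM in dog1-3 mock, 12.6, 18.8, 18.8 and 17.0 CPM in WT NaCl, and 13.0, 8.67, 23.6 and 33.9 CPM in WT mock. ATCG00190 measured 15.0, 18.8, 14.9 and 17.3 CPM in dog1-3 NaCl, 31.4, 49.3, 51.0 and 17.3 CPM in dog1-3 mock, 26.2, 19.8, 16.5 and 15.5 CPM in WT NaCl, and 20.5, 11.4, 25.8 and 40.6 CPM in WT mock. In dog1-3 the NaCl and mock groups of ATCG00180 and ATCG00080 were separated by a narrow gap, and for ATCG00190 mock library 4 lay among the NaCl libraries. The WT groups overlapped at all 3 loci. The log2FC of salt in dog1-3 was -1.25 for ATCG00180 (standard error 0.26, adjusted p = 0.000261), -1.22 for ATCG00080 (standard error 0.28, adjusted p = 0.00113) and -1.21 for ATCG00190 (standard error 0.29, adjusted p = 0.00139). Without both high dog1-3 mock libraries, left out after seeing the data, these were -0.71, -0.91 and -0.58, and none was called.

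The 7 loci numbered ATCG00760 to ATCG00820 were all tested and all had a negative log2FC in dog1-3 NaCl against dog1-3 mock. Of these, 6 were called lower, beside 34.6% of the 52 chloroplast loci and 7.16% of all tested loci. Their log2FC lay between -1.17 and -0.53, with ATCG00780 the one that was not called. This run of identifiers was singled out after its values were seen and is given without a test.

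**Figure D4:**
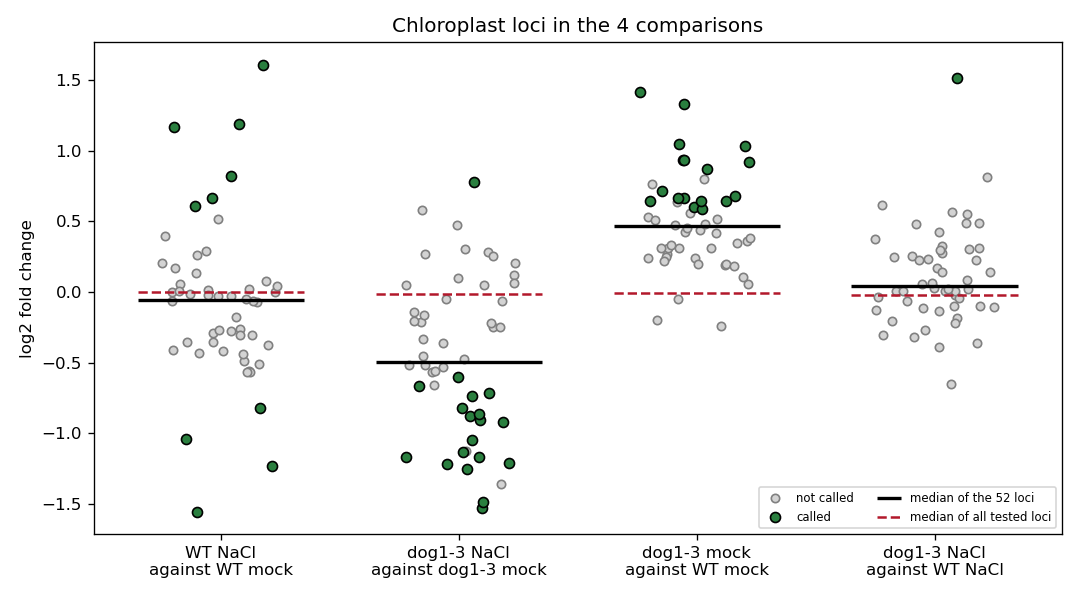
Log2FC of the 52 tested chloroplast loci in the 4 comparisons, with filled points for loci called at an adjusted p under 0.05 and more than 1.5-fold, black bars for their median and dashed bars for the median of all 12697 loci. The points sit low for salt in dog1-3 (median -0.49) and high for dog1-3 mock against WT mock (median 0.47), and these comparisons share the dog1-3 mock libraries.

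Between the genotypes in mock, 17 of the 52 loci were higher in dog1-3 mock and none was lower. The background was 9.94% called higher and 8.44% called lower, and of the chloroplast loci 32.7% were higher. The median log2FC was 0.47, against -0.01 over all loci. Of the 52, 49 were positive, against 6230 of all 12697 tested loci. The increases were between 0.59 and 1.41 on the log2 scale. They included ATCG00530, the CemA-like locus (0.87), and ATCG00660 for ribosomal protein L20 (0.66). The others were ATCG00020, ATCG00065, ATCG00150, ATCG00090, ATCG00080, ATCG00130, ATCG01050, ATCG00040, ATCG00420, ATCG01010, ATCG00540, ATCG00300, ATCG01040, ATCG00170 and ATCG00190. At 7 of the 8 loci with the most counts no difference was called, ATCG00540 being the exception.

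This count was the least stable of the 4. It was 7 without WT mock library 2, 9 without WT mock library 3, 29 without WT mock library 4, 8 without dog1-3 mock library 2 and 8 without dog1-3 mock library 3. Without both dog1-3 mock libraries 2 and 3 it was 2, with 1 locus higher and 1 lower and a median log2FC of 0.09. These were left out after seeing their high chloroplast shares, a choice that by itself moves the median toward lower values. It also leaves fewer libraries in dog1-3 mock and so less power to make calls. DESeq2, run on all 99 loci with a count, called 4 loci. Library totals in place of TMM scaling gave 6, and scaling to the chloroplast counts gave 5. No locus remained called in all of the 11 other settings, and 5 remained when any single library was left out. The 4 seed storage genes used as a check of the tissue (CRA1, CRU3, SESA1 and OLEO1) were abundant in all groups, and all 4 were called higher in dog1-3 in both treatments (median log2FC 0.73 in mock and 0.89 in NaCl). Their summed level was 66789 to 86798 CPM in dog1-3 NaCl, 54844 to 64133 CPM in dog1-3 mock, 35919 to 50800 CPM in WT NaCl and 24580 to 41275 CPM in WT mock. The part of this difference in composition in the chloroplast values was not tested.

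ATCG00065 measured 3.75, 1.34, 1.11 and 3.92 CPM in dog1-3 NaCl, 5.33, 6.34, 6.87 and 3.67 CPM in dog1-3 mock, 2.43, 1.41, 1.71 and 1.00 CPM in WT NaCl, and 1.86, 0.542, 1.23 and 4.84 CPM in WT mock. WT mock library 4 lay within the dog1-3 mock range, and the other 3 held at most 5 counts each. The log2FC of dog1-3 mock against WT mock was 1.33 (standard error 0.40, adjusted p = 0.00754). ATCG00090 measured 36.1, 38.9, 19.4 and 35.3 CPM in dog1-3 NaCl, 45.8, 75.0, 97.3 and 47.8 CPM in dog1-3 mock, 23.8, 36.3, 37.0 and 31.0 CPM in WT NaCl, and 20.5, 14.4, 44.3 and 46.9 CPM in WT mock. The mock groups of the genotypes overlapped at WT mock library 4, and the NaCl groups overlapped widely. Its log2FC was 1.03 between the genotypes in mock (standard error 0.22, adjusted p = 0.000213) and -1.05 for salt in dog1-3 (standard error 0.25, adjusted p = 0.00146).

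ATCG00150 measured 3.75, 8.05, 4.98 and 13.3 CPM in dog1-3 NaCl, 12.8, 8.58, 9.73 and 1.05 CPM in dog1-3 mock, 1.94, 3.77, 6.26 and 4.00 CPM in WT NaCl, and 5.22, 3.80, 1.97 and 4.84 CPM in WT mock. Dog1-3 mock library 4, with 2 counts, was the lowest of all 16, while the other 3 lay above every WT mock library. The log2FC of dog1-3 mock against WT mock was 1.05 (standard error 0.37, adjusted p = 0.025), and the call was lost without dog1-3 mock library 1, 2 or 3 or WT mock library 3 (0.76 to 1.01). ATCG00020 and ATCG00080, described above for salt, had a log2FC of 1.41 (standard error 0.30, adjusted p = 0.000193) and 0.94 (standard error 0.23, adjusted p = 0.00158) in dog1-3 mock against WT mock. In all, 8 loci were both lower in dog1-3 NaCl than in dog1-3 mock and higher in dog1-3 mock than in WT mock, 8 of 19 and 8 of 17. The comparisons share the 4 dog1-3 mock libraries, so that a high value there enters both, and no weight is given to the overlap. Without dog1-3 mock libraries 2 and 3 none of ATCG00020, ATCG00065, ATCG00080 and ATCG00090 was called in dog1-3 mock against WT mock (log2FC 0.45, 1.02, 0.62 and 0.52). Those libraries were left out after seeing their high chloroplast shares, and fewer libraries lower the power to make calls.

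Of the remaining loci with high counts, ATCG00540 measured 141, 119, 84.1 and 140 CPM in dog1-3 NaCl, 121, 213, 239 and 135 CPM in dog1-3 mock, 78.2, 132, 103 and 125 CPM in WT NaCl, and 139, 78.1, 89.8 and 150 CPM in WT mock. Its log2FC in dog1-3 mock against WT mock was 0.65 (standard error 0.17, adjusted p = 0.00264), with overlapping groups, and fell under the 1.5-fold limit without WT mock library 2 or 3 or dog1-3 mock library 2 or 3 (0.48 to 0.55). ATCG00470 averaged 262 ± 23.1 CPM in dog1-3 NaCl, 335 ± 80.6 CPM in dog1-3 mock, 258 ± 61.7 CPM in WT NaCl and 349 ± 70.6 CPM in WT mock (SD, n = 4 each). ATCG00740 averaged 239 ± 56.7 CPM in dog1-3 NaCl, 329 ± 35.5 CPM in dog1-3 mock, 255 ± 54.1 CPM in WT NaCl and 288 ± 60.1 CPM in WT mock. ATCG01020 averaged 151 ± 21.5 CPM in dog1-3 NaCl, 206 ± 42.0 CPM in dog1-3 mock, 145 ± 36.1 CPM in WT NaCl and 178 ± 36.5 CPM in WT mock. These 3 loci had adjusted p under the threshold for salt in dog1-3 with changes under 1.5-fold (log2FC -0.36, -0.47 and -0.45), so that they were not called. Their mean was lower in NaCl than in mock in both genotypes.

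Among the named loci that code for housekeeping functions of the plastid, ATCG00670, the Clp protease subunit, averaged 54.4 ± 9.42 CPM in dog1-3 NaCl, 50.9 ± 14.1 CPM in dog1-3 mock, 50.5 ± 1.24 CPM in WT NaCl and 61.3 ± 17.4 CPM in WT mock (SD, n = 4 each). It was called in no comparison. ATCG00660 measured 32.8, 21.5, 31.5 and 33.7 CPM in dog1-3 NaCl, 38.3, 40.3, 40.1 and 23.1 CPM in dog1-3 mock, 28.7, 17.0, 17.1 and 23.0 CPM in WT NaCl, and 22.7, 11.1, 15.5 and 39.9 CPM in WT mock. The groups overlapped in every comparison, and salt gave -0.25 in dog1-3 and -0.07 in WT on the log2 scale, neither called. ATCG00530 averaged 6.60 ± 1.01 CPM in dog1-3 NaCl, 7.64 ± 1.03 CPM in dog1-3 mock, 5.49 ± 1.44 CPM in WT NaCl and 4.11 ± 2.45 CPM in WT mock (SD, n = 4 each). Its call in dog1-3 mock against WT mock was lost without WT mock library 2 or 3 or dog1-3 mock library 4 (0.64 to 0.79), and that of ATCG00660 without WT mock library 2 or 3 or dog1-3 mock library 2 or 3 (0.44 to 0.61). ATCG00430, of unchecked function, averaged 17.9 ± 2.22 CPM in dog1-3 NaCl, 15.2 ± 6.73 CPM in dog1-3 mock, 12.8 ± 1.98 CPM in WT NaCl and 12.6 ± 5.30 CPM in WT mock (SD, n = 4 each). ATCG00430 was called in no comparison.

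**Figure D5:**
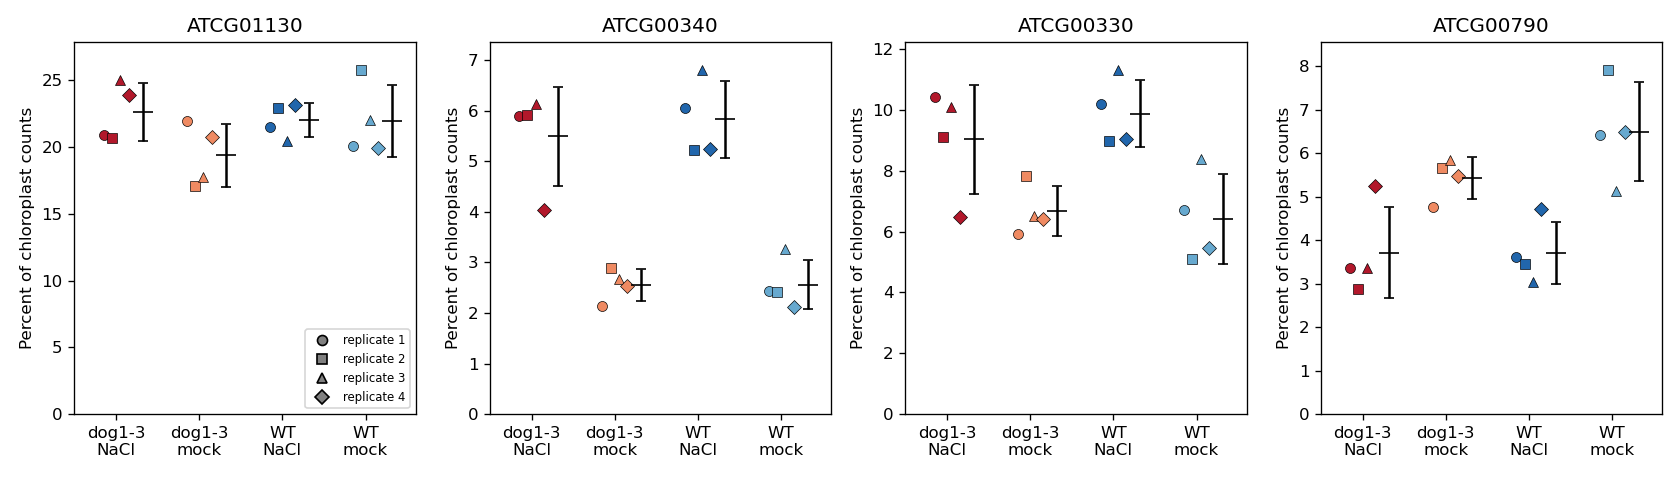
Percent of a library's chloroplast counts on ATCG01130, ATCG00340, ATCG00330 and ATCG00790 by group, with marker shapes for the replicate numbers and bars for the mean ± SD (n = 4). ATCG00340 separates NaCl from mock in both genotypes (5.50 and 2.56% on average in dog1-3, 5.83 and 2.56% in WT), and the groups overlap for ATCG01130, at 17.1 to 25.8%.

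The salt response of the chloroplast loci was compared between the genotypes by the interaction. None of the 52 was called after adjustment (edgeR's quasi-likelihood test), against 0.00788% of all loci, and DESeq2 called none either. Without the filter on low counts, which takes in all 99 loci with a count, 6 were called. At an unadjusted p under 0.05 there were 16 of the 52 loci, beside 826 of all 12697 tested loci. Of the 16, 15 had a more negative response in dog1-3 and 1, ATCG00720, a more positive one. The median interaction over the 52 loci was -0.33, against -0.02 over all loci. Without dog1-3 mock libraries 2 and 3 it was -0.02. These were left out after seeing that they had the highest chloroplast shares of their group, a choice that by itself moves the median toward less negative values. With any single library left out the median lay between -0.57 (without WT mock library 4) and -0.22 (without WT mock library 2), so that it stayed negative. No locus was called with any single library left out. Of the 52 loci, 33 were called in at least 1 of the 4 comparisons and 19 in none. The matching share over all tested loci was not computed, so whether these counts are unusual cannot be told.

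Nuclear genes that serve chloroplast transcription were read from the same fit. Of 8 genes for plastid polymerases and sigma factors 5 were tested, and SIG2, a sigma factor of the bacterial-type polymerase, was lower under salt in dog1-3 (14.7 CPM in NaCl and 25.2 CPM in mock, log2FC -0.70, adjusted p = 0.00529) and in WT (15.0 CPM in NaCl and 25.1 CPM in mock, log2FC -0.76, adjusted p = 0.000504). SIG3 was lower in dog1-3 mock (3.03 CPM) than in WT mock (5.54 CPM), with a log2FC of -0.89 and an adjusted p of 0.0369. The phage-type polymerase gene RPOTp averaged 59.0 CPM in dog1-3 NaCl, 59.9 CPM in dog1-3 mock, 66.0 CPM in WT NaCl and 70.1 CPM in WT mock, and was called in no comparison. No other gene of this list was called. For salt in either genotype and between the genotypes in mock, 1 of the 5 was called lower (20%). The background called lower was 7.16% for salt in dog1-3, 7.07% for salt in WT and 8.44% for dog1-3 mock against WT mock.
All 12 genes for the polymerase-associated proteins PAP1 to PAP12 were tested, and PAP6, a fructokinase-like subunit, was the one called. It was lower under salt in dog1-3 (51.1 CPM in NaCl and 97.4 CPM in mock, log2FC -0.92, adjusted p = 2.94e-08) and in WT (49.9 CPM in NaCl and 97.1 CPM in mock, log2FC -0.96, adjusted p = 1.25e-09). None was called between the genotypes. The share called lower under salt was 8.33% in either genotype, near the background of 7.16% in dog1-3 and 7.07% in WT at this threshold. Without the fold limit, 4 of the 12 were lower under salt in dog1-3 and 5 in WT. Over all 12697 tested loci these were 1719 and 2095. The median log2FC of the 12 was -0.25 for salt in dog1-3 and -0.33 for salt in WT, against -0.02 and -0.002 over all loci. Of 6 genes for plastid RNA processing and decay 5 were tested and none was called in any comparison, over backgrounds of 7.07% to 9.94% in a direction. With so few genes the shares of these lists are a description.

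Of 27 nuclear photosynthesis genes 11 were tested. In dog1-3 NaCl against dog1-3 mock 1 was called higher (9.09%) and 3 lower (27.3%), over a background of 7.53% and 7.16%. In WT NaCl against WT mock 3 were higher (27.3%) and 2 lower (18.2%), over a background of 9.46% and 7.07%. Between the genotypes 2 were higher (18.2%) and 1 lower (9.09%) in dog1-3, in mock (background 9.94% and 8.44%) as in NaCl (background 8.16% and 7.54%). With 11 genes these shares are a description. RBCS1A, a small subunit of Rubisco, was higher under salt in dog1-3 (888 CPM in NaCl and 514 CPM in mock, log2FC 0.79, adjusted p = 1.67e-09) and in WT (596 CPM in NaCl and 393 CPM in mock, log2FC 0.60, adjusted p = 2.58e-07). ATPC1 and ATPD, for the gamma and delta subunits of the chloroplast ATP synthase, were lower under salt in both genotypes (log2FC -0.81 and -0.74 in dog1-3, -0.87 and -0.68 in WT). PSAF (0.82) and LHCB4.2 (0.69) were higher under salt in WT, and PETC (-0.63) was lower in dog1-3. Between the genotypes ATPD was lower in dog1-3 (-1.01 in mock, -1.07 in NaCl). PSBP1 was higher in dog1-3 in mock (0.59) and NaCl (0.72), LHCB4.2 in mock (1.24) and LHCA4 in NaCl (0.87).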

How the data were processed

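The authors counted reads per locus in 16 libraries of 3'RNA-seq and deposited unnormalized counts, and their processing notes name STAR 2.7.8a, DESeq2 and TAIR10. Strand, multi-mapping reads and molecular identifiers are not given in the sources used here. From the deposited counts, edgeR 4.0.16 in R 4.3.3 was run with TMM scaling, filterByExpr (minimum count 10) and the quasi-likelihood F test over all 16 libraries with 4 group means. A call needed an adjusted p (Benjamini-Hochberg, over 12697 loci) below 0.05 and a change above 1.5-fold. Standard errors are the log2FC divided by the square root of F. The script was tested on simulated data. No libraries of a group were copies, since chi-square per degree of freedom was 1.51 to 6.16. Members, lists and tests were chosen with earlier results of these data known. Named were ATCG00020 and ATCG00490, the 8 loci with the highest mean CPM, up to 5 called loci with the largest change in each comparison, and the smallest interaction p. ATCG00730, ATCG00780 and loci with a RefSeq name were added. Gene classes and the inverted repeat could not be assigned to identifiers without names, so sums by class were left out. One locus is counted in the totals but not reported here. DESeq2 1.42.0, other scalings, filters, thresholds, a replicate block and each library left out were the alternatives.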

Additional observations from a re-analysis of the deposited data

Results flagged for a closer look

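Of 84 groups of 4 libraries examined at the named loci, 2 held a library far from the others by Dixon's criterion, and chance flags about 1 in 20. ATCG00330 measured 145 CPM in WT mock library 2, against 244 to 263 CPM in the other 3 WT mock libraries. This library was the lowest of its group at 34 of the 52 tested loci. ATCG00790 measured 195 CPM in dog1-3 NaCl library 4, against 106 to 121 CPM in the other 3.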

How the results depend on the processing

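Counts of called loci are given for the alternatives, beside 52 tested loci in the main fit. DESeq2 and the run without a filter took in all 99 loci with a count, and the filter of 10 counts in 4 libraries took in 55. With libraries left out the low-count filter was applied anew. For salt in WT (10 calls) the count was 7 to 13 with each library left out. For salt in dog1-3 (19 calls) it was 14 to 24, and it was 27 (26 lower) with library totals, 12 with scaling to the chloroplast counts and 3 without dog1-3 mock libraries 2 and 3. For dog1-3 mock against WT mock (17 calls) it was 7 to 29 with each library left out, 4 with DESeq2, 6 with library totals, 9 with library totals without the 20 highest loci, 5 with scaling to the chloroplast counts and 2 without dog1-3 mock libraries 2 and 3. For dog1-3 NaCl against WT NaCl (1 call) it was 2 without a filter, and for the interaction (0 calls) 6 without a filter, all lower. The cause of these changes was not tested, except that fewer samples or other loci enter by construction. Dog1-3 mock libraries 2 and 3 were chosen for their high chloroplast shares, so leaving them out lowers the dog1-3 mock share by construction. Library totals moved the median log2FC of all loci to -0.12 and -0.19 for salt in WT and dog1-3, and to -0.18 and -0.25 for dog1-3 against WT in mock and NaCl. ATCG00190 turned to -0.051 in dog1-3 mock against WT mock without dog1-3 mock libraries 2 and 3, while the other called loci kept their direction in every alternative run, with 173 of 1269 values no longer past the threshold. Same-numbered libraries correlated between -0.063 and 0.094 in their deviations, and differently numbered libraries reached 0.084. Whether same-numbered libraries were paired cannot be told from such low values. A replicate block gave 10, 21, 18 and 1 calls in the order above and 0 for the interaction. The log2 ratio of the chloroplast share ranged from -0.58 to -0.35 for salt in dog1-3 and from -0.24 to 0.00 for salt in WT. It ranged from 0.00 to 0.26 for dog1-3 mock against WT mock and from -0.32 to -0.13 for dog1-3 NaCl against WT NaCl. Shares without rRNA and tRNA loci or without the inverted repeat were not run, since identifiers could not be assigned to them. Depth limits loci with few counts, such as ATCG00065 with at most 5 counts in 3 WT mock libraries.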
